A study of Mus musculus with 10 samples.

Results

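The neural crest factors are 7 mouse transcription factor genes, Sox9, Sox10, Tfap2a, Tfap2b, Tfap2c, Ets1 and Foxd3, that were taken by symbol from the 52459 rows of the raw count table. All 7 were found once, and all 7 were among the 18818 genes that passed the filter on low counts. The rule rests on symbols and uses no measured value, but the members were chosen with earlier results of these data known.

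Neural crest cells arise at the border between the neural plate and the surface ectoderm, leave the dorsal neural tube and migrate to form peripheral neurons and glia, pigment cells and much of the facial skeleton. Wnt, Fgf and Bmp signals first induce border genes, among them those of the AP-2 family, and these act upstream of crest specifiers such as Foxd3, Ets1, Sox9 and Sox10. None of the 7 is restricted to the crest: Foxd3 also works in pluripotent cells, Tfap2c in germ cells, trophoblast and ectoderm, Ets1 in endothelium and blood, and Sox9 in cartilage and neural progenitors.

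The libraries came from wild-type mouse embryonic stem cells of the C57BL/6 line ES-Bruce4, differentiated in culture towards neuromesodermal progenitors (NMPs), cells that give rise to both spinal cord and trunk mesoderm. Every group received bFgf at 10 ng/ml from day 0. The D2 group, labelled as epiblast stem cells, was taken at day 2, before CHIR99021, an inhibitor of Gsk3 that activates Wnt signalling, was added at 5 µM. D3, D6 and D7, all labelled as NMPs, were taken on days 3, 6 and 7 of differentiation, with CHIR99021 present at 5 µM. D7G was a day 7 group, also labelled as NMP, that had CHIR99021 at 5 µM as D7 did. It also had Gdf11, a secreted Tgf-beta family ligand, at 50 ng/ml from day 6 for 24 h. All groups derive from 1 line that had been grown on embryo fibroblast feeders, which were depleted once before differentiation.

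Each of the 5 groups had 2 libraries, with 31078950 to 33418015 counts per library and a correlation of 0.998 to 0.999 within groups. The labels do not say whether the 2 libraries of a group came from separate cultures, so the p-values measure the spread between libraries, which may be technical. The defining epiblast markers Fgf5 and Otx2 were at 19.9 and 36.1 CPM in D2, where CPM is the count scaled to library size. The NMP marker T was at 0.919 CPM in D2, 232 in D3, 41.7 in D6, 19.8 in D7 and 29.3 in D7G. The 10 NMP markers together summed to 175 to 183 CPM in D2, 1189 to 1209 in D3, 663 to 677 in D6, 446 to 451 in D7 and 361 to 374 in D7G. With Gdf11, 5 of the 10 fell, among them Cdx4 (38.4 to 13.5 CPM) and Cdx2 (41.9 to 25.0 CPM), and 3 rose, or 1 without D7 replicate 2 or D7G replicate 2. These are bulk libraries, in which a larger share of cells that express a gene and more RNA per cell cannot be told apart.

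The 7 genes did not move together. Tfap2a, Tfap2b and Sox9 were highest in D7G, Ets1 was also highest there but rose mainly with Gdf11, Tfap2c peaked in D3, and Foxd3 and Sox10 were highest in D2 and low from D6 on. From D2 to D3, 4 members rose (Sox9, Tfap2b, Tfap2c and Ets1) and 1 fell (Foxd3), where 29.6% of all tested genes rose and 28.9% fell (edgeR's quasi-likelihood test, adjusted p under 0.05). From D3 to D6, 4 rose (Sox9, Tfap2a, Tfap2b and Ets1) and 3 fell (Sox10, Tfap2c and Foxd3), against 32.4% and 33.3% of all genes. From D6 to D7, 4 rose (Sox9, Tfap2a, Tfap2b and Tfap2c) and 0 fell, against 20.5% and 15.6% of all genes, but 2 rose when D6 replicate 1, D7 replicate 1 or D7 replicate 2 was left out. With Gdf11, D7G against D7, 4 rose (Ets1, Tfap2b, Tfap2a and Sox9) and 0 fell, against 22.5% and 18.2% of all genes. The same shares of all tested genes apply to the counts given below for other gene lists in these comparisons.

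The members' median log2 fold change was 0.55 from D2 to D3, 0.24 from D3 to D6, 0.69 from D6 to D7 and 0.63 with Gdf11. The median over all tested genes lay between -0.0069 and 0.036 in these 4 comparisons. D7 is the control of the Gdf11 comparison and the later group of the D6 to D7 comparison, so the 2 share its libraries.

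**Figure D1:**
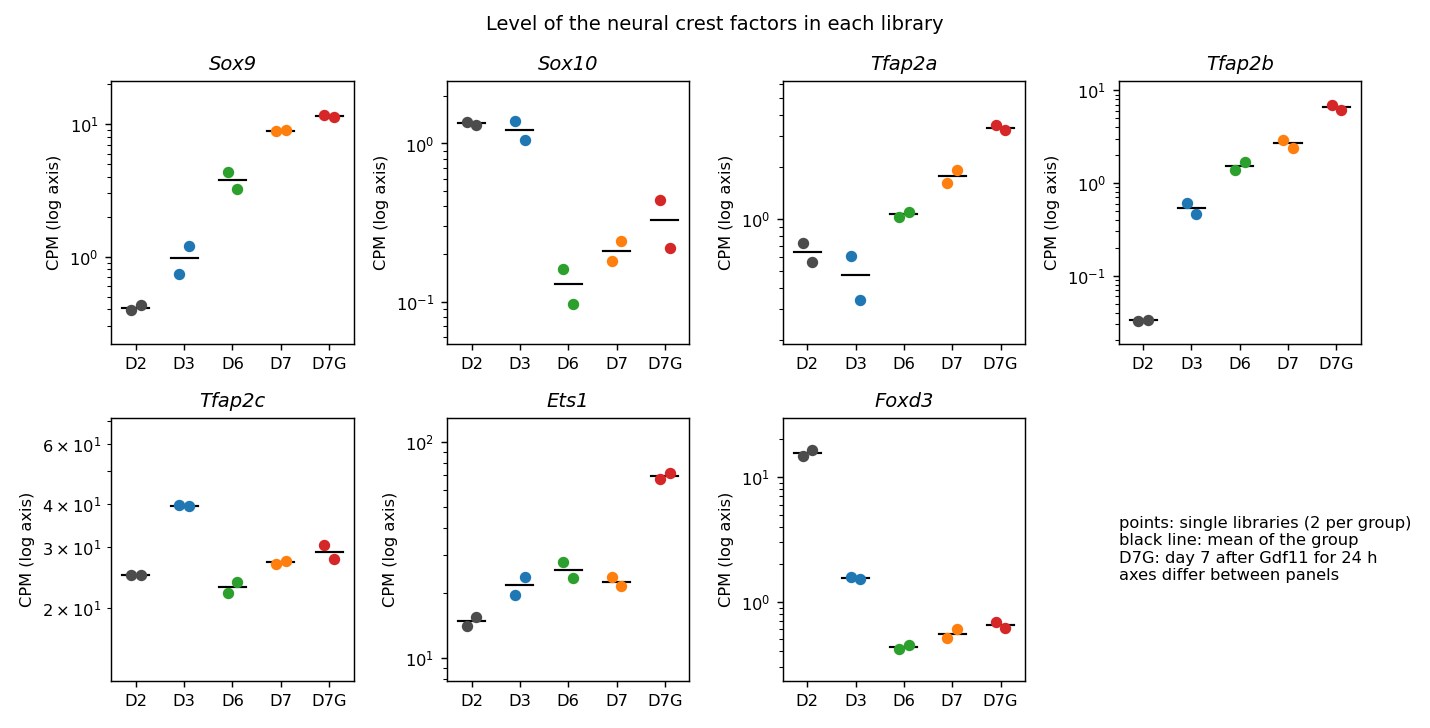
Level of each neural crest factor in CPM (log axis, scaled separately for each gene) in the single libraries of the 5 groups, with the mean of the 2 libraries as a black line. Tfap2b climbs from 0.0328 CPM in D2 to 6.54 CPM in D7G, Foxd3 falls from 15.7 to 0.435 CPM in D6, and Ets1 stands apart in D7G at 69.4 CPM.

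**Figure D2:**
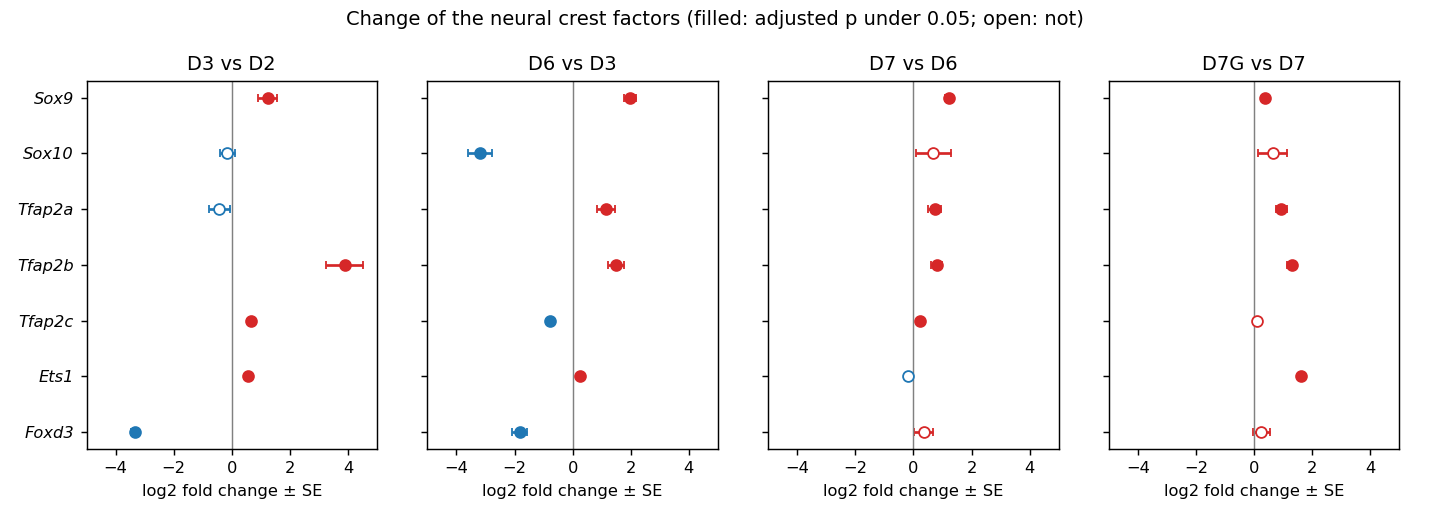
Log2 fold change with its standard error for each neural crest factor in 4 comparisons, the first-named group minus the second; filled points have an adjusted p under 0.05. In D7G against D7 the filled points are Sox9, Tfap2a, Tfap2b and Ets1, with Ets1 the farthest from 0 at 1.62.

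The AP-2 genes are described first. They encode transcription factors that act as dimers on GC-rich sites and mark the neural plate border and early crest. Tfap2b, which acts in late crest, sympathetic neurons and kidney, was at the edge of detection in D2 and rose at every step. It had 1 and 1 counts in the D2 libraries, 20 and 15 in D3, 43 and 52 in D6, 98 and 80 in D7, and 223 and 196 in D7G. No group's libraries overlapped those of another.

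Against the 2 counts of D2, the Tfap2b level in D3 was 16.4 times as high by pooled counts, with a 95% counting interval of 4.21 to 141. The edgeR test of this step gave a log2 fold change of 3.88 ± 0.65 (SE, adjusted p = 3.38e-05). The log2 fold change was 1.50 ± 0.27 (SE) from D3 to D6 (adjusted p = 6.57e-05) and 0.80 ± 0.19 from D6 to D7 (adjusted p = 0.00306). Gdf11 added 1.29 ± 0.15 (adjusted p = 9.46e-07), taking the mean from 2.67 ± 0.370 CPM (SD, n = 2) to 6.54 ± 0.635 CPM (SD, n = 2). The increase from D6 to D7 did not pass without D7 replicate 1 (0.61, adjusted p = 0.0572), whereas the Gdf11 difference lay between 1.13 and 1.42 over all 19 alternative settings.

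Tfap2a, whose loss in mice disrupts closure of the head and the cranial crest, had a similar late course from a higher start. It had 22 and 17 counts in D2, 20 and 11 in D3, 32 and 34 in D6, 54 and 64 in D7, and 111 and 105 in D7G. D2 and D3 overlapped and did not differ by test (log2 fold change -0.42 ± 0.35, adjusted p = 0.309), while D6, D7 and D7G each lay above the group before.

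The log2 fold change of Tfap2a was 1.15 ± 0.31 from D3 to D6 (adjusted p = 0.00271) and 0.73 ± 0.23 from D6 to D7 (adjusted p = 0.0181). With Gdf11 it was 0.93 ± 0.19 (adjusted p = 4.49e-04), from 1.77 ± 0.220 to 3.37 ± 0.152 CPM (SD, n = 2). The first 2 of these calls were less stable than the last. The rise to D6 was lost without D3 replicate 2 (0.80, adjusted p = 0.0557), and the rise to D7 was lost with DESeq2 (adjusted p = 0.106) and without D6 replicate 1 (0.0939), D6 replicate 2 (0.0572) or D7 replicate 2 (0.162).

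The promoters of Tfap2b and Tfap2a are shown because the 2 genes rose together from D3 to D7G. Each window runs from 250 bases before to 50 bases after a RefSeq start site on GRCm38.p6, 5′ to 3′ on the gene's strand. Tfap2a has 2 such sites. Capitals mark matches to 5 motifs searched on both strands, which do not overlap here.
Tfap2b chr1:19211804-19212103 (+): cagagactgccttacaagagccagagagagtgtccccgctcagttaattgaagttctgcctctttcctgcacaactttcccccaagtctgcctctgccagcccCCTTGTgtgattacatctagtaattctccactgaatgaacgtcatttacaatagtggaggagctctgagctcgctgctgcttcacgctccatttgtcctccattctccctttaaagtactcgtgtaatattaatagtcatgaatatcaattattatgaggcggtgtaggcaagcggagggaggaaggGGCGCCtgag
Tfap2a chr13:40733746-40734045 (-): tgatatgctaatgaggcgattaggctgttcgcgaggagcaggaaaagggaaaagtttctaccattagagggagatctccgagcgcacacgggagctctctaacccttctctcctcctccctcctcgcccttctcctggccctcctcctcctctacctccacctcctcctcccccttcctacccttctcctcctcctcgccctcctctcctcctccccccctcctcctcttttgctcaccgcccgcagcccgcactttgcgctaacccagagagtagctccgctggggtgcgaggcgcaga
Tfap2a chr13:40734871-40735170 (-): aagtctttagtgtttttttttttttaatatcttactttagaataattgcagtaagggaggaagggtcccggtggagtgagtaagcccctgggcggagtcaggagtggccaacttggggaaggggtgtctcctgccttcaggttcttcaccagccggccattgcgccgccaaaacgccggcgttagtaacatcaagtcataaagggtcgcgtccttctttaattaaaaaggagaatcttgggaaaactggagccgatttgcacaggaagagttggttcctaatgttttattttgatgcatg
The Tfap2b window held 1 match to the Sox motif ACAANG, on the reverse strand at -147 from the start site, and 1 to the GC-rich Smad motif GGCGCC at +40. Of 32851 RefSeq promoters of this length, 41.2% held the first and 11.9% the second. Neither Tfap2a window held a match to these, to the AP-2 motif GCCNNNGGC (16.6% of promoters), to the Tcf/Lef motif CTTTGA (16%) or to the Smad palindrome GTCTAGAC (0.213%). A match describes letters in the window and is not a measured binding site. RefSeq windows were found for 3 of the 7 members, and the third, that of Foxd3, held no match to the 5 motifs.

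Tfap2c, an AP-2 factor of trophoblast, germ cells and early ectoderm, was by far the most abundant of the 3 in every group. Its level was 25.0 and 25.0 CPM in D2, 39.7 and 39.4 in D3, 22.0 and 23.8 in D6, 26.9 and 27.3 in D7, and 30.5 and 27.8 in D7G. The D3 libraries stood farthest above the rest, D7G, D7, D2 and D6 followed in that order with no overlap, and the highest group mean was 1.73 times the lowest.

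The rise of Tfap2c in D3 was 0.66 ± 0.06 (log2, adjusted p = 1.32e-08) and the fall to D6 was -0.79 ± 0.06 (adjusted p = 7.73e-10). The rise from D6 to D7 was 0.24 ± 0.06 (adjusted p = 0.00623) and did not pass without D6 replicate 1 (0.0914), D7 replicate 1 (0.0582) or D7 replicate 2 (0.0842). Gdf11 gave 0.11 ± 0.06 (adjusted p = 0.195). In the order of the levels D7G and D7, D7 and D2, and D2 and D6 did not differ by test, whereas D7G was above D2 by 0.22 ± 0.06 (adjusted p = 0.00404).

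Per kilobase of gene length, Tfap2c made up 98.0 ± 0.326% (SD, n = 2) of the summed AP-2 level of these 3 genes in D2, 98.3 ± 0.498% in D3, 93.2 ± 0.244% in D6, 90.4 ± 0.236% in D7 and 82.2 ± 0.166% in D7G. Tfap2b grew from 0.0748% in D2 to 5.18 ± 0.755% in D7 and 10.7 ± 0.322% in D7G, and Tfap2a from 1.88% to 4.43 ± 0.519% and 7.14 ± 0.156%. Tfap2a and Tfap2b together thus remained a minority of the summed level of these 3 genes in every library. Tfap2e, which is outside this sum, was at 0.520 CPM per kilobase in D2, against 0.131 for Tfap2a. In D7G the values were 0.202 and 0.688.

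**Figure D3:**
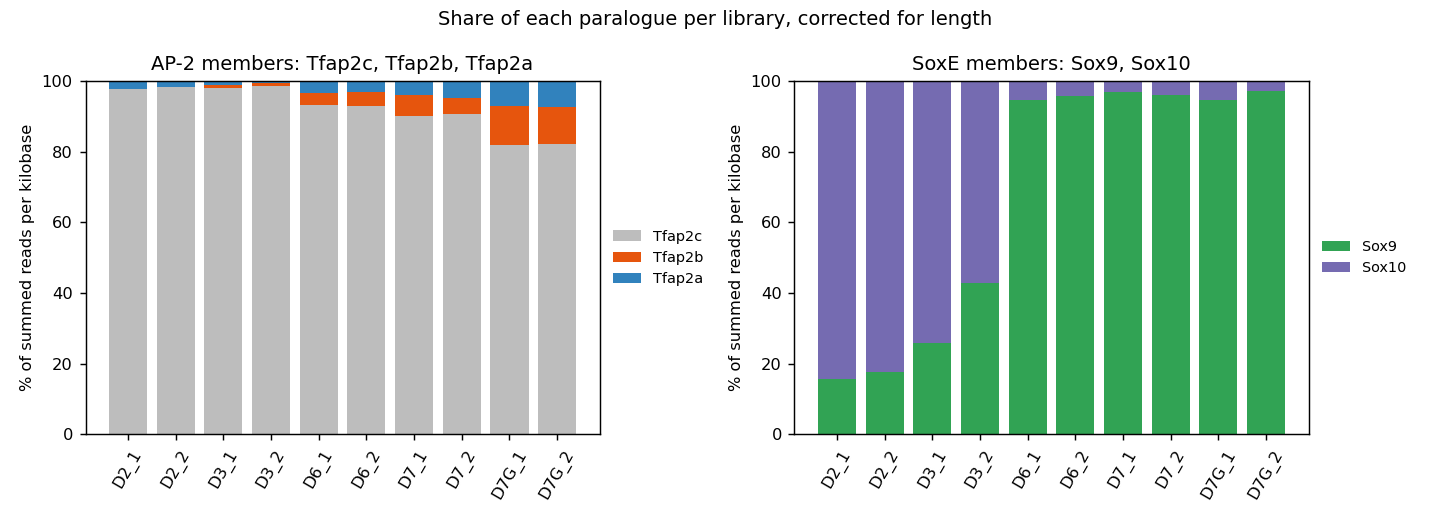
Share of each gene (percent) in the summed reads per kilobase of the genes shown, in every library, for the 3 AP-2 members (left) and for Sox9 and Sox10 (right). Sox8, Tfap2d and Tfap2e are not in the sums. The Tfap2c share shrinks from 98.0% in D2 to 82.2% in D7G, and Sox10 gives way to Sox9 between D3 and D6.

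Markers of other cells in which AP-2 genes can be expressed moved in the same comparisons. The summed level of 12 surface ectoderm markers went from 486 to 493 CPM in D2 to 566 to 703 CPM in D3 and 181 to 198 CPM in D6, with 7 of the 9 tested higher and 2 lower in D3 and all 9 lower in D6. With Gdf11 that sum went from 215 to 227 CPM up to 347 to 418 CPM, with 6 of 9 higher, among them Krt8 (59.1 to 121 CPM) and Krt18 (78.6 to 147 CPM). The keratinocyte genes Trp63, Krt5 and Krt14 stayed at or below 0.203 CPM in D7 and D7G. Of 9 trophoblast markers, 6 were tested and all 6 were higher in D3, though fewer were called in some alternative settings. The list's sum was 16.5 to 19.2 CPM in D3 against 9.49 to 9.96 in D2. Most of the D3 sum was Krt7 (4.15 to 7.86 CPM from D2 to D3) and Eomes (3.12 to 5.16 CPM). Elf5, Tpbpa and Prl3d1 had 1, 0 and 0 counts in D3. The sum of 8 germ cell markers was 119 to 120 CPM in D7 and 141 to 150 CPM in D7G, with 7 higher, or 4 without D7 replicate 1 or D7 replicate 2. Of 9 neuronal markers, 6 rose with Gdf11 and 0 fell, among them Dcx (10.5 to 26.9 CPM) and Tubb3 (58.7 to 129 CPM), and the list's sum went from 155 to 157 CPM up to 282 to 291 CPM. The part of such cells in the AP-2 levels was not tested.

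Foxd3, a forkhead factor that keeps both pluripotent cells and early crest undifferentiated, fell steeply after D2. Its level was 14.8 and 16.6 CPM in D2, 1.59 and 1.51 in D3, 0.418 and 0.452 in D6, 0.509 and 0.602 in D7, and 0.690 and 0.622 in D7G. The D2 libraries lay far above all others, D3 lay between, and the 3 late groups were close together. The log2 fold change was -3.33 ± 0.13 from D2 to D3 (adjusted p = 3.70e-14) and -1.83 ± 0.26 from D3 to D6 (adjusted p = 4.09e-06). From D6 to D7 it was 0.35 ± 0.33 (adjusted p = 0.475) and with Gdf11 0.24 ± 0.30 (adjusted p = 0.593), so no late rise was detectable from 27 to 42 counts per group.

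Foxd3 depended on the table more than the other members. The authors' second count table gave 108 to 174% of its counts per library, 117.5% in sum, and a log2 fold change of -2.77 from D2 to D3. From D6 to D7G the second table gave 0.82 (adjusted p = 0.0224), against 0.59 (adjusted p = 0.147) in the first. The sum of 11 pluripotency markers fell less than Foxd3, from 1635 to 1636 CPM in D2 to 1003 to 1006 in D3 and 568 to 673 in D6. Of these, 5 were higher and 5 lower in D3, and 10 were lower in D6. With Gdf11 all 11 were higher (803 to 915 CPM against 655 to 676), though fewer were called in some alternative settings. The list's median log2 fold change was 0.34. Foxd3, with 37 counts in D7 and 42 in D7G, had 0.24 ± 0.30 and no call.

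Ets1, an Ets-domain factor that acts in the cranial and cardiac crest as well as in endothelium and lymphocytes, showed the largest Gdf11 difference of the 7. Its level was 14.1 and 15.4 CPM in D2, 19.6 and 23.7 in D3, 27.9 and 23.3 in D6, 23.6 and 21.5 in D7, and 67.2 and 71.6 in D7G. D3, D6 and D7 overlapped one another, D2 was lower than all, and both D7G libraries stood far above all others. The mean rose from 22.5 ± 1.49 CPM (SD, n = 2) in D7 to 69.4 ± 3.12 CPM in D7G, a log2 fold change of 1.62 ± 0.08 (adjusted p = 4.05e-12) that ranged from 1.53 to 1.67 over the 19 alternatives.

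Before Gdf11, Ets1 rose by 0.55 ± 0.10 from D2 to D3 (log2, adjusted p = 6.11e-05). The D3 to D6 difference of 0.24 ± 0.09 (adjusted p = 0.0230) came from overlapping groups and did not pass with library totals (0.108), with upper-quartile factors (0.0589), or without D3 replicate 1 (0.349) or D6 replicate 1 (0.357). From D6 to D7 the log2 fold change was -0.19 ± 0.09 (adjusted p = 0.116). It passed as a fall when only those 2 groups were fitted (0.0452) and in 5 fits that left a library out, the strongest without D6 replicate 2 (-0.31, adjusted p = 0.0191), the others without D3 replicate 1, D3 replicate 2, D7G replicate 1 or D7G replicate 2.

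Of 12 endothelial and blood markers, 9 were tested, and 2 rose with Gdf11 and 0 fell, where 22.5% of all tested genes rose. More were called in some alternative settings. Runx1, a blood and sensory neuron factor, went from 9.90 to 49.7 CPM and the Ets factor Fli1 from 0.781 to 3.50 CPM. The list's sum went from 30.2 to 30.7 CPM up to 76.3 to 77.9 CPM, of which Runx1 was the larger part. The endothelial genes Cdh5 (0.420 and 0.375 CPM in D7 and D7G), Emcn (0.0299 and 0.0780) and Erg (0.120 and 0.141) were near 0 in both groups. Pecam1 (13.4 and 16.0 CPM), Tek (3.17 and 4.25) and Kdr (1.55 and 1.81), also endothelial genes, were detected in both and had no call. The 10 embryo fibroblast markers summed to 533 to 545 CPM in D7 and 1210 to 1394 CPM in D7G, with 8 of 10 higher, Col1a1 from 27.3 to 241 CPM. Largest in that sum was Col3a1, at 261 CPM in D7 and 659 CPM in D7G. Other genes of the list were low in both groups, among them Dcn (0.524 and 0.671 CPM) and Thy1 (0.510 and 1.11 CPM). In D2 these 2 were at 4.43 and 9.20 CPM. Lum went the other way, at 0.328 CPM in D2 and 15.2 CPM in D7G. The trophoblast list summed to 13.3 CPM in D7 and 18.3 to 20.1 CPM in D7G, with 2 of 6 tested genes higher (1 without D7 replicate 1 or D7G replicate 1). The part of fibroblasts or of these other cells in the Ets1 level was not tested.

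Sox9 and Sox10 belong to the SoxE group: Sox9 acts early in crest survival and emigration and later in cartilage, and Sox10 marks migrating crest and its glia and pigment cells. Sox9 rose at each step. It had 12 and 13 counts in D2, 24 and 39 in D3, 135 and 101 in D6, 295 and 301 in D7, and 375 and 367 in D7G. The groups did not overlap and followed one another in this order, and the mean in D7G, 11.6 ± 0.245 CPM (SD, n = 2), was 28.2 times that in D2.

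The largest step of Sox9 was from D3 to D6, which is also the longest interval. Its log2 fold change there was 1.97 ± 0.21 (adjusted p = 6.00e-08), followed by 1.23 ± 0.14 from D6 to D7 (adjusted p = 9.99e-07). From D2 to D3 it was 1.23 ± 0.34 (adjusted p = 0.00437), which did not pass without D3 replicate 2 (0.84, adjusted p = 0.0931). The Gdf11 difference was the smallest of the 4 called, 0.37 ± 0.11 (adjusted p = 0.0130), from 8.94 ± 0.167 to 11.6 CPM. It did not pass with DESeq2 (adjusted p = 0.104) or without D7 replicate 1 (0.0894), D7 replicate 2 (0.0651) or D7G replicate 1 (0.0701), though its value stayed between 0.33 and 0.38 in all 19 alternatives.

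Sox10 ran the other way. It had 42 and 40 counts in D2, 45 and 34 in D3, 5 and 3 in D6, 6 and 8 in D7, and 14 and 7 in D7G. D2 and D3 overlapped, the 3 late groups lay far below them, and D7 and D7G overlapped each other. The fall from D3 to D6 was -3.20 ± 0.42 (log2, adjusted p = 1.14e-06), from 1.21 ± 0.233 to 0.129 ± 0.0453 CPM (SD, n = 2).

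None of the other 3 steps of Sox10 passed. The D2 to D3 difference was -0.15 ± 0.25 (adjusted p = 0.639) and turned to 0.043 (adjusted p = 0.926) without D3 replicate 2. From D6 to D7 it was 0.69 ± 0.61 (adjusted p = 0.414) and with Gdf11 0.63 ± 0.49 (adjusted p = 0.331). A rise of Sox10 after D6 could therefore not be resolved from 8, 14 and 21 counts per group.

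Per kilobase, Sox10 was 83.3 ± 1.27% (SD, n = 2) of the Sox9 plus Sox10 level in D2, 65.6 ± 12.0% in D3, 4.84 ± 0.716% in D6, 3.45 ± 0.627% in D7 and 4.10 ± 1.81% in D7G. Because the 2 genes are close paralogues, 150 bases around the longest run shared by their coding sequences (GENCODE vM21, mm10) are shown. They are bases 194 to 343 of the Sox9 and 191 to 340 of the Sox10 coding sequence. Part of this stretch encodes the start of the DNA-binding HMG box. Capitals mark the 12 of 150 bases that differ.
Sox9: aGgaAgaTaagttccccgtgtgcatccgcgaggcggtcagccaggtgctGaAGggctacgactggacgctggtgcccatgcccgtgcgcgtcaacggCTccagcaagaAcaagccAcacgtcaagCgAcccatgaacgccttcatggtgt
Sox10: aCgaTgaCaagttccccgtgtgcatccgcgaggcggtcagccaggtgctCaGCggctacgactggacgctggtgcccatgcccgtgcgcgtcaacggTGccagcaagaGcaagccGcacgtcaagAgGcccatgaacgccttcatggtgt
The 2 windows are 92% identical, and the longest run shared by the coding sequences was 44 bases. Among the AP-2 members the longest shared run was 29 bases, between Tfap2a and Tfap2b. How reads in such runs were assigned is not given in the sources used here. The opposite courses of Sox9 and Sox10 from D3 to D6, 63 to 236 and 79 to 8 counts per group, are the measured values.

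Cells of the sclerotome and ventral neural tube also express Sox9. The sum of 13 sclerotome and cartilage markers was 57.6 to 61.5 CPM in D2, 75.0 in D3, 215 to 243 in D6, 264 to 268 in D7 and 306 to 339 in D7G. Most of it was the collagen gene Col2a1, a direct Sox9 target in cartilage, at 38.6 CPM in D2, 52.2 in D3, 172 in D6, 211 in D7 and 277 in D7G. The other 12 genes summed to 20.7 to 21.1 CPM in D2, 22.7 to 22.9 in D3, 52.7 to 60.9 in D6, 54.0 to 56.5 in D7 and 43.2 to 47.6 in D7G. Of the 11 tested, 8 rose and 2 fell from D3 to D6. With Gdf11, 2 rose and 3 fell, among the latter Foxc2 (5.63 to 1.54 CPM) and Pax9 (8.92 to 3.90 CPM). Largest in the ventral neural and glial list was Ptch1, at 198 CPM in D2, 146 in D7 and 112 in D7G. In D2 Slc1a3 (56.4 CPM) and Olig2 (53.7 CPM) followed, while Nkx6-1, Nkx2-2 and Shh were at or below 0.459 CPM. The list summed to 325 to 326 CPM in D2, 147 to 159 in D3 and 296 to 300 in D6. In D7 the list summed to 306 to 313 CPM and in D7G to 290 to 295 CPM. With Gdf11, 6 of its 9 tested genes rose and 2 fell (3 rose with DESeq2 or without D7 replicate 2). The part of these cells in the Sox9 level was not tested.

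**Figure D4:**
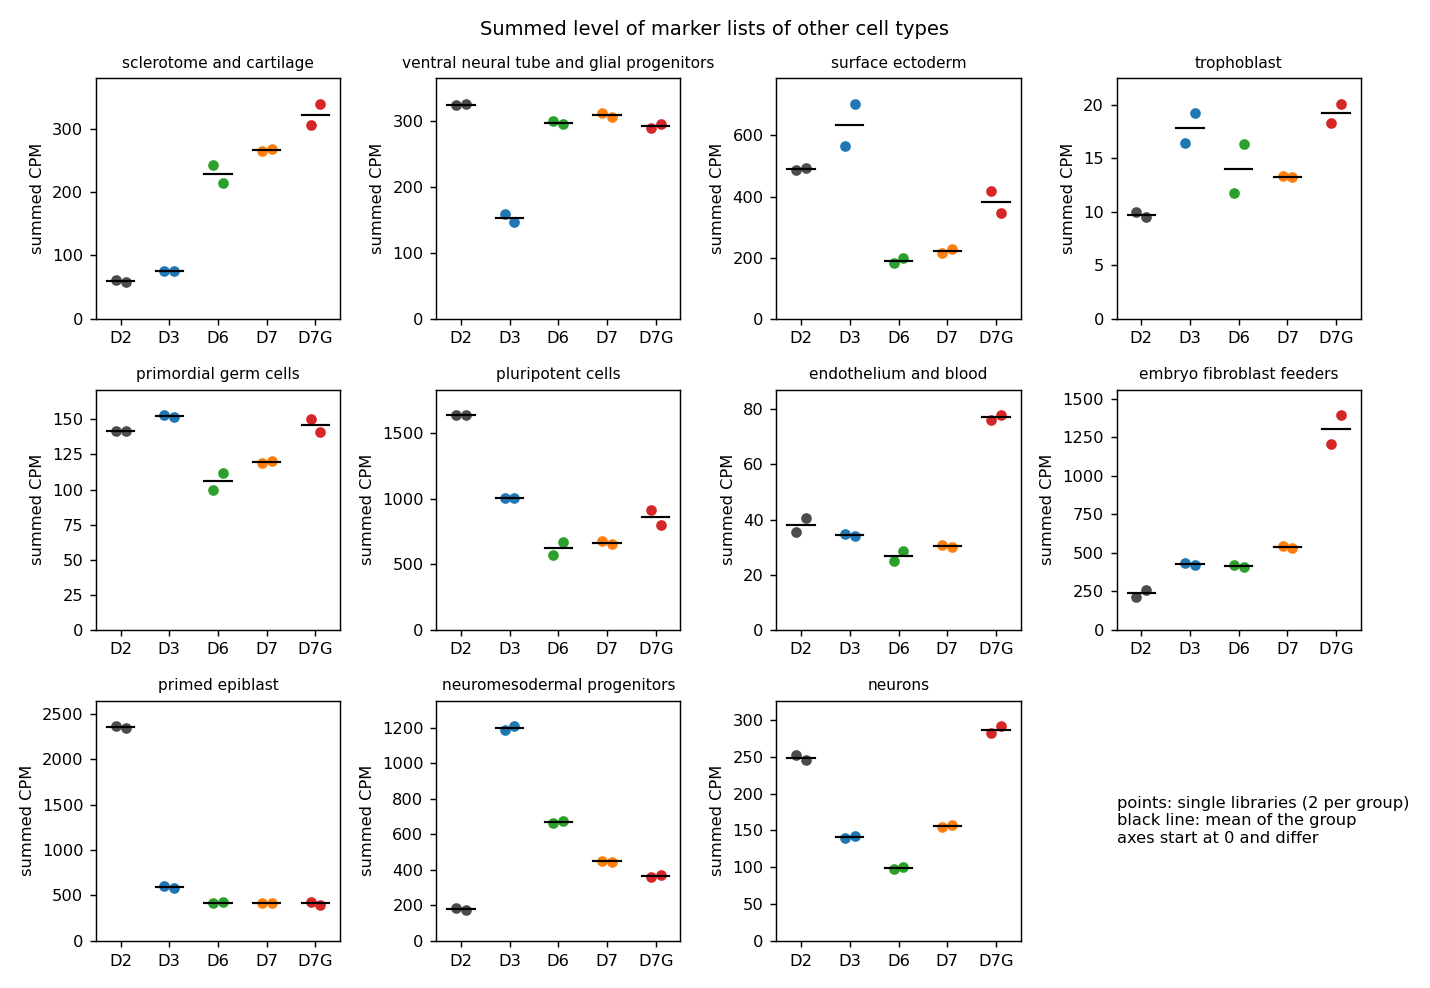
Summed CPM of 11 marker lists in each library, with the group mean as a black line and axes that start at 0. The endothelial and blood sum is 76.3 to 77.9 CPM in D7G against 30.2 to 30.7 in D7, and the fibroblast sum is 1210 to 1394 against 533 to 545.

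Set side by side per kilobase (CPM per kilobase of gene length), the order of the 7 genes changed over the course. In D2 the highest were Tfap2c (6.79) and Foxd3 (6.76), then Ets1 (1.74), Sox10 (0.496), Tfap2a (0.131), Sox9 (0.0993) and Tfap2b (0.00518). In D7G they were Ets1 (8.19 ± 0.368, SD, n = 2), Tfap2c (7.92 ± 0.515), Sox9 (2.80 ± 0.0592), Tfap2b (1.03 ± 0.100), Tfap2a (0.688 ± 0.0311), Foxd3 (0.282 ± 0.0207) and Sox10 (0.121 ± 0.0577). Foxd3 thus moved from nearly the level of Tfap2c to the lower end of the 7, where Sox10 also lay, and Sox9 and Tfap2b moved up from the lower end of the order.

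Against D2, 5 members were higher in D7G and 2 lower (Sox10 and Foxd3), where 36.1% of all genes were higher and 35.3% lower. Against D6, the state in which Gdf11 was added, 5 members were higher in D7G and 0 lower (Sox9, Tfap2a, Tfap2b, Tfap2c and Ets1), where 30.6% of all genes were higher and 22.2% lower. The log2 fold changes were 1.61 ± 0.13 for Sox9 and 1.66 ± 0.21 for Tfap2a, against 1.23 and 0.73 for D7 against D6 without Gdf11. For Tfap2b they were 2.09 ± 0.17 and 0.80, and for Ets1 1.44 ± 0.08 and -0.19. Both comparisons share the D6 libraries. Sox10 had 1.32 ± 0.56 (adjusted p = 0.0539) and passed with library totals (0.0485), with the second table (0.0448) and without D7G replicate 2 (0.0263). The authors' deposited table lists all 7 genes, and its D7G minus D7 log2 values were 1.61 for Ets1, 1.27 for Tfap2b, 0.911 for Tfap2a, 0.355 for Sox9, 0.526 for Sox10, 0.221 for Foxd3 and 0.0861 for Tfap2c.

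Other genes of the crest pathway give the setting. Of all tested genes, 29.6% rose and 28.9% fell from D2 to D3, and 32.4% and 33.3% from D3 to D6. The shares were 20.5% and 15.6% from D6 to D7, and 22.5% and 18.2% with Gdf11. Of 14 neural plate border genes, 9 rose and 3 fell from D2 to D3 and 9 rose and 4 fell from D3 to D6, with median log2 fold changes of 1.05 and 1.01. In D3 the largest rises were those of the paired box gene Pax7 (0.0492 to 2.12 CPM), the homeobox genes Msx1 (0.541 to 15.0) and Msx3 (0.229 to 4.44), and the zinc finger gene Zic1 (1.68 to 34.4). Zic1 reached 366 CPM in D6, Pax7 23.0 and Pax3 41.3, while Dlx3 fell to 0.500. Tfap2b and Sox9 rose in the same 2 steps. From D6 to D7, 7 rose and 1 fell, the latter Hes1, a Notch target (69.9 to 47.3 CPM).

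With Gdf11, 8 border genes rose and 3 fell, or 5 and 3 with DESeq2, with a median log2 fold change of 0.28. Msx2, a Bmp-responsive homeobox gene, rose from 7.04 to 19.4 CPM and Hes1 from 47.3 to 76.1 CPM. Pax7, a marker of premigratory crest, fell from 43.0 to 24.5 CPM, and Gbx2 fell from 33.4 to 22.7 CPM. Border genes therefore moved both ways in the comparison in which 4 of the 7 members rose.

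Of 14 other specification and emigration genes, 9 rose and 2 fell in D3, 11 rose and 1 fell in D6, 7 rose and 4 fell in D7, and 8 rose and 4 fell with Gdf11. Id3 and Sox5 led in D3 (log2 2.18 each), and Id2 (11.1 to 105 CPM) and Twist1 (5.30 to 38.4 CPM), a factor of mesenchymal change, led in D6. In D7 Snai2, a repressor of epithelial genes, rose from 4.56 to 8.28 CPM, and Myc fell from 64.1 to 42.3 CPM. With Gdf11 Snai1 rose from 5.82 to 13.9 CPM, Twist1 from 42.2 to 88.0 CPM and Sox8 from 1.14 to 2.17 CPM, while Myc fell further to 21.0 CPM.

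Of 21 genes of migratory crest and its early derivatives 20 were tested, and 12 rose and 3 fell in D3, 10 and 6 in D6, 10 and 1 in D7, and 9 and 4 with Gdf11 (5 rose with DESeq2). The largest Gdf11 rise was that of the integrin gene Itga4, at 5.54 and 5.24 CPM in D7 and 36.7 and 36.8 CPM in D7G (log2 2.77 ± 0.08, adjusted p = 3.47e-15). The nerve growth factor receptor gene Ngfr went from 12.7 and 14.0 to 44.6 and 46.7 CPM, and the semaphorin receptor gene Nrp1 from a mean of 10.4 to 32.6 CPM. Ret, the receptor of enteric crest, fell from 24.3 and 25.0 to 5.89 and 5.69 CPM. These 4 were named for the size of their change in this comparison, so the lack of overlap between their groups adds no support. The glial crest gene Cdh19 was at 0.0312 CPM in D7G, beside Sox10 at 0.328 CPM.

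**Figure D5:**
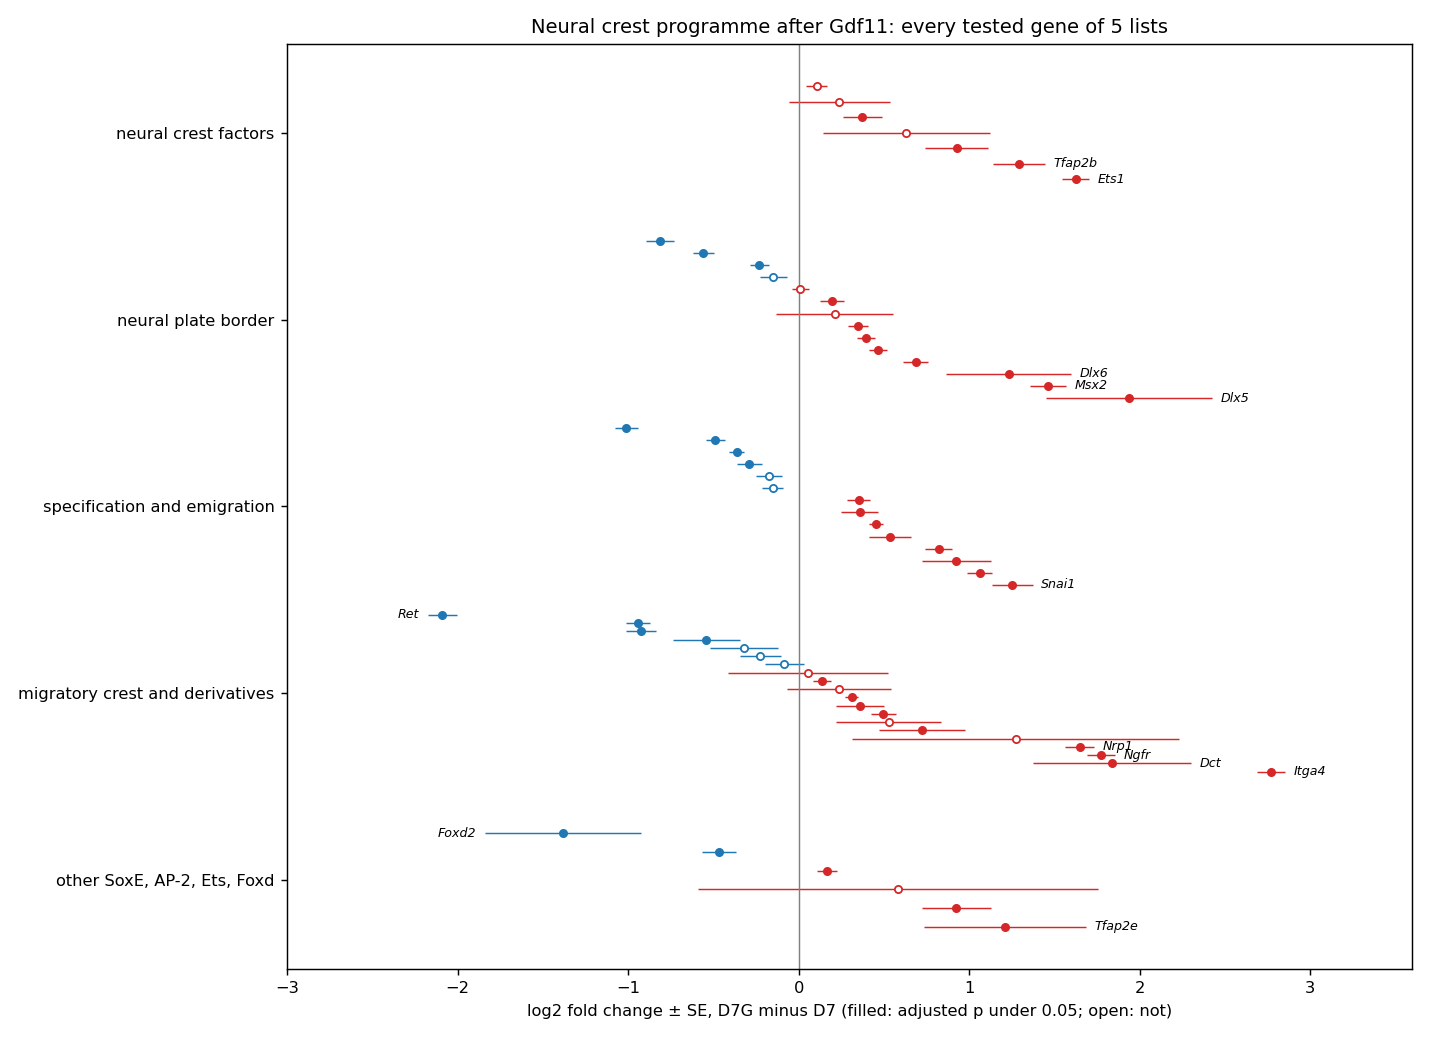
Log2 fold change with its standard error, D7G minus D7, of every tested gene in the member list and 4 lists of related genes; filled points have an adjusted p under 0.05, and names are given past 1.1 on either side. Among the related genes points lie on both sides of 0, from Ret at -2.09 to Itga4 at 2.77, whereas the 7 members range from 0.11 to 1.62.

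Of 7 close relatives of the members, 6 were tested, with 3 higher and 1 lower in D3, 1 and 2 in D6, 0 and 1 in D7, and 3 and 2 with Gdf11. Sox8, the other SoxE gene, rose with Gdf11 (log2 0.93 ± 0.20, adjusted p = 0.00114), the forkhead gene Foxd1 fell (-0.47 ± 0.10, adjusted p = 8.94e-04), and Tfap2d had no count in 4 of the 5 groups. The calls of Tfap2e and Ets2 with Gdf11 held in 4 and 9 of 19 alternatives, so that 1 relative, Sox8, was called higher with DESeq2 and with several single libraries left out, namely D3 replicate 1, D3 replicate 2, D7 replicate 1, D7G replicate 1 and D7G replicate 2. Per kilobase Sox8 was at 0.696 in D7G, between Sox9 and Sox10.

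The genes whose level followed each member most closely were taken by the Pearson correlation of log2(CPM + 1) over the 10 libraries, among 11741 or 11742 genes with at least 5 CPM in a group. The libraries come in pairs from 5 groups, so high values of r are common and are given as a description. For Sox9 they were Draxin (0.993), Dcaf7 (0.992) and Snai2 (0.992), and for Tfap2b Epas1 (0.993), Maged2 (0.993) and Cotl1 (0.991). For Tfap2a they were Sncaip (0.992), Megf10 (0.988) and Cdh22 (0.987). Megf10 went from 14.8 CPM in D7 to 54.4 CPM in D7G. For Ets1 the closest was another Ets factor, Elk3 (0.987), at 10.8 CPM in D7 and 51.7 CPM in D7G, followed by Nav3 (0.984) and Adamtsl2 (0.983). For Foxd3 they were Phc1 (0.998), Ankrd35 (0.998) and Lat (0.995), for Sox10 Cd2ap (0.988), Dmrt1 (0.987) and Trim6 (0.987), and for Tfap2c Igtp (0.992), Ctsa (0.989) and Fuca2 (0.985).

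The 7 genes lie on 7 chromosomes in mm10. The table's spans are chr11:112782224-112787760 for Sox9, chr15:79154913-79164490 for Sox10, chr13:40715302-40738376 for Tfap2a, chr1:19208914-19238576 for Tfap2b, chr2:172549593-172558622 for Tfap2c, chr9:32636221-32757820 for Ets1 and chr4:99656299-99658622 for Foxd3. For 6 of the 7 the span equals that of GENCODE vM21, and Sox10 is shorter. Tfap2a shares exonic bases with 3 antisense genes, Gm26688 (380 bases), AC123834.2 (265) and AC159205.3 (73), which had at most 8 counts in any library. Whether the counting used strand is not given in the sources used here, and the second table gave 78.4 to 100% of the Tfap2a counts per library, 85.7% in sum.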

How the data were processed

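RNA-seq was measured in 10 libraries of 5 groups. The authors deposited raw counts per gene symbol, a second table of counts per Ensembl gene, and the results of their own comparisons with D2 as log2 fold changes, together with CPM, p-values and FDR. The genome build was mm10 and the tools named, per the submitters' processing notes, were featureCounts 1.6.3, HISAT2 2.1.0, limma and STAR. Their roles, the counting options and the use of strand are not given in the sources used here. Reads that match paralogues equally well may have been dropped or assigned by those options.

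From the deposited raw counts, 1 fit of all 10 libraries was made with edgeR 4.0.16 (R 4.3.3), using TMM scaling, filterByExpr and the quasi-likelihood test with 5 residual degrees of freedom. Benjamini-Hochberg adjustment ran over the 18818 tested genes, and an adjusted p under 0.05 was a call. CPM here are counts on TMM-scaled library sizes (factors 0.974 to 1.04), and levels per kilobase divide them by the table's gene length. The counting interval of Tfap2b is an exact binomial one and covers counting error only. The standard errors and p-values of the other genes with low counts are those of the edgeR fit. The test was checked on simulated data. Alternatives were library totals, upper-quartile factors, DESeq2 1.42.0, limma-voom 3.58.1, the second table, no filter, a filter of 1 CPM in at least 2 libraries, a fit of the 2 compared groups alone, the replicate number as a block, and each library left out. Samples were grouped by the day and treatment in their labels. Named genes other than the members are up to 4 called genes of a list with the largest change and at least 1 CPM in a group, and the 3 genes most correlated with each member. Outside that rule, defining markers of a cell type, the largest genes of a list's sum, list genes low or at 0, and Gm12688 are named. These were chosen after their values were seen. The members, lists, tests and alternatives were chosen with earlier results of these data known.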

Additional observations from a re-analysis of the deposited data

How the results depend on the processing

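Of 795 log2 fold changes of the 7 genes over 6 comparisons and 19 alternatives, 759 kept their direction and their side of the threshold, 24 lost the call, 11 gained one and 1 changed sign: Sox10 from D2 to D3, which ranged from -0.35 to 0.043 over the fits that left 1 library out. The number of members called from D6 to D7 was 4 and ranged from 2 to 5 over those fits, with 2 without D6 replicate 1, D7 replicate 1 or D7 replicate 2. The numbers of members called in the other comparisons and of all genes called stayed within 1.5 times the reported values. From D2 to D6, Tfap2a (0.73, adjusted p = 0.0331) lost its call with upper-quartile factors, DESeq2, the second table and without D2 replicate 2, D6 replicate 1 or D6 replicate 2, and Tfap2c gained one with upper-quartile factors (-0.19, adjusted p = 0.0189). The cause was not tested.

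The labels do not say what libraries of the same replicate number share. Correlations of same-numbered deviations over 10 pairs of groups were -0.0758 to 0.0999. They run over all tested genes, many with low counts, and so cannot exclude a shared culture or preparation round. With the replicate number as a block, 5, 7, 4 and 4 members were called from D2 to D3, D3 to D6, D6 to D7 and with Gdf11, and the Gdf11 difference of Ets1 was 1.62. Depth limits Sox10 and Foxd3 after D6, which rest on 8 to 42 counts per group.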

Other observations

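The opposite-strand neighbour Gm12688, chosen by position after the Foxd3 values had been seen, lies just upstream of the Foxd3 start and does not overlap the gene. It had 175 and 141 counts in D2, 82 and 61 in D3, 7 and 11 in D6, 12 and 17 in D7, and 17 and 9 in D7G. Its larger step came later than that of Foxd3, over the longer D3 to D6 interval. The log2 fold change of Gm12688 was -1.24 ± 0.19 from D2 to D3 (edgeR, adjusted p = 9.99e-06) and -2.90 ± 0.33 from D3 to D6 (adjusted p = 1.75e-07). From D6 to D7 it was 0.58 ± 0.47 (adjusted p = 0.364), and with Gdf11 -0.10 ± 0.43 (adjusted p = 0.878).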
